A study of Drosophila melanogaster with 3 samples.

Results

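The far intronic regions are the places bound by Aef1-eGFP that lie inside introns of autosomal protein-coding genes and more than 3000 bp from every annotated protein-coding transcript start. They were chosen from the peaks themselves: peaks of the 3 biological replicates were merged where they overlapped by at least 1 bp, and a region was kept when peaks of 2 or more replicates met in it, when it was not on the X chromosome, and when its summit fell in an intron and touched no exon of any protein-coding transcript. This gave 315 regions, of 2969 found in 2 or more replicates and of 4290 found in any replicate. Of the 2359 autosomal regions found in 2 or more replicates, 1304 lay within 500 bp of a start, 384 were intronic, over 500 and up to 3000 bp from a start, 327 were intergenic, 29 were exonic, and the 315 far intronic ones made up the rest. Since the presence of a peak chose the regions, their signals and ranks are given as a description, with no test.

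Aef1 (adult enhancer factor 1) is a zinc finger protein of Drosophila melanogaster, first described as a repressor that binds an enhancer active in the adult fat body, and the DNA word known for it is CAACAA, often in tandem. Introns of flies hold many transcriptional enhancers, which can act on a promoter over several kilobases in either orientation. Long introns are common in genes that control development, and many of the enhancers described for such genes lie in them. A peak in such an intron gives the place of the tagged protein on the chromatin, not the gene that the place acts on.

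Chromatin immunoprecipitation with sequencing was done on whole embryos collected over the first 24 h of development (0 to 24 h) from transgenic flies that express an Aef1-eGFP fusion. The antibody was directed against GFP and the chromatin was sheared by sonication. The 3 biological replicates form 1 group with 1 genotype, so the design holds no second condition, and no input or untagged sample was analysed here. Every embryonic stage and tissue was pooled in a sample, so occupancy in a few cells and weak occupancy in many cannot be told apart. The authors' lists held 3495, 3126 and 2942 peaks in replicates 1, 2 and 3 after their threshold on the irreproducible discovery rate (IDR, which scores how well the order of peaks repeats between a pair of calls), and the number of reads behind them is unknown. Regions are not replicates of each other, several share a gene, and intervals and p-values computed over regions cover counting error only.

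The DNA at the summits shows what the strongest far intronic regions look like. Below are windows of 101 bp centred on the summit, read 5′ to 3′ on the plus strand of the dm6 genome (RefSeq's copy of Release 6), with capitals marking each CAACAA, or TTGTTG where the word lies on the other strand. The first 6 belong to regions among the 20 strongest and carry no copy of the word.
CG32486, chr3L:3060749-3060849: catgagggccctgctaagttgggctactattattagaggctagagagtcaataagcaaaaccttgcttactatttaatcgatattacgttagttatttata
osa, chr3R:17704369-17704469: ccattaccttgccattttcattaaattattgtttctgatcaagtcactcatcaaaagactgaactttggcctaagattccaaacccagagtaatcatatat
osa, chr3R:17700518-17700618: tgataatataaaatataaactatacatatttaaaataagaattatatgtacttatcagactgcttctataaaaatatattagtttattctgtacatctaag
simj, chr3L:10682921-10683021: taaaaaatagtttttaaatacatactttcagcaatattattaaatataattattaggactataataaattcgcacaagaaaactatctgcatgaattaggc
Gug, chr3L:8458284-8458384: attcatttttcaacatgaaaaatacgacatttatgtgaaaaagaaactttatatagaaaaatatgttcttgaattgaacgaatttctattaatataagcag
dpp, chr2L:2433604-2433704: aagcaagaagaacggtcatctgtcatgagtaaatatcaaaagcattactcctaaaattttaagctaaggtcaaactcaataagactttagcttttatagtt
The next 2 belong to the only regions among the 20 strongest that hold the word.
CG5953, chr2L:16526133-16526233: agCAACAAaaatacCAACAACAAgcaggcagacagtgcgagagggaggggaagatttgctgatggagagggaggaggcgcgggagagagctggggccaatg
bun, chr2L:12529590-12529690: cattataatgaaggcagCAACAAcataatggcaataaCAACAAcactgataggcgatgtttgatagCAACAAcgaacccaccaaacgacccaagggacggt
The last 2 hold the longest CAA tracts among the regions whose sequence is printed here, with 4 copies in a row on either strand and in any phase.
ftz-f1, chr3L:18781704-18781804: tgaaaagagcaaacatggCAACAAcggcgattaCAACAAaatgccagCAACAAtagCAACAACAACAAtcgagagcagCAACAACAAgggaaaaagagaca
kibra, chr3R:14714372-14714472: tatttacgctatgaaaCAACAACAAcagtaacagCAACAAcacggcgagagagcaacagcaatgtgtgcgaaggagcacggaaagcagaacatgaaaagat
The windows without the word were 17.8% to 35.6% GC, and 4 of these 6 were below the mean of all far intronic summits, which was 33.2%. The windows at CG5953, ftz-f1, kibra and bun were 56.4%, 41.6%, 43.6% and 43.6% GC. The printed windows were picked for strength or tract length, with these ftz-f1 and kibra regions at mean ranks of 50.1% and 78.6%. They do not compare GC over all summits with and without the word.

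Of the 315 far intronic regions, 289 had a peak in replicate 1, 284 in replicate 2 and 251 in replicate 3. A peak in all 3 replicates was found for 194 of them (61.6%, 95% Clopper-Pearson interval 56 to 67). Among intronic regions nearer to a start the share was 72.4%, among autosomal intergenic regions 66.1%, and among all 2969 regions 70.1%. The 121 far intronic regions found in 2 replicates lacked replicate 1 in 26 cases, replicate 2 in 31 and replicate 3 in 64. The authors' longer ranked list of the missing replicate held a peak at 111 of the 121 (91.7%, 85.3 to 96), with a median −log10 IDR of 1.15, against 2 at the threshold of 0.01. Over all 888 regions found in 2 replicates the share was 92.3% (90.4 to 94) and the median −log10 IDR 1.12, close to the far intronic values. How often a ranked list holds a peak elsewhere in introns was not tested. These shares therefore do not measure support from the missing replicate.

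The median signal of a far intronic peak, in the authors' units, was 79.3 in replicate 1, 67.3 in replicate 2 and 61.9 in replicate 3. Within each list, ranked from the strongest peak at 0% to the weakest at 100%, the median far intronic peak stood at 44.3%, 47.5% and 55.2% (mean 49 ± 5.57, SD, n = 3 replicates). Intronic regions nearer to a start stood at 42.4%, 47.2% and 44.4%. Intergenic regions stood at 44.5%, 44.2% and 47.7%. Far intronic peaks were thus of middling rank, and in replicate 3 their median was lower in the list than that of either other class. The top 10% of the list held 5.19%, 4.93% and 4.38% of the far intronic peaks in replicates 1, 2 and 3, and 12.2%, 9.32% and 10.3% of the intronic peaks nearer to a start. Over the 194 regions with 3 peaks, which were chosen for being called in every list, Spearman's correlation of the signal was 0.73 for replicates 1 and 2, 0.76 for replicates 1 and 3 and 0.747 for replicates 2 and 3. The summits of the 3 peaks lay a median of 29 bp apart, and within 100 bp in 185 of 194 regions (95.4%).

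**Figure D1:**
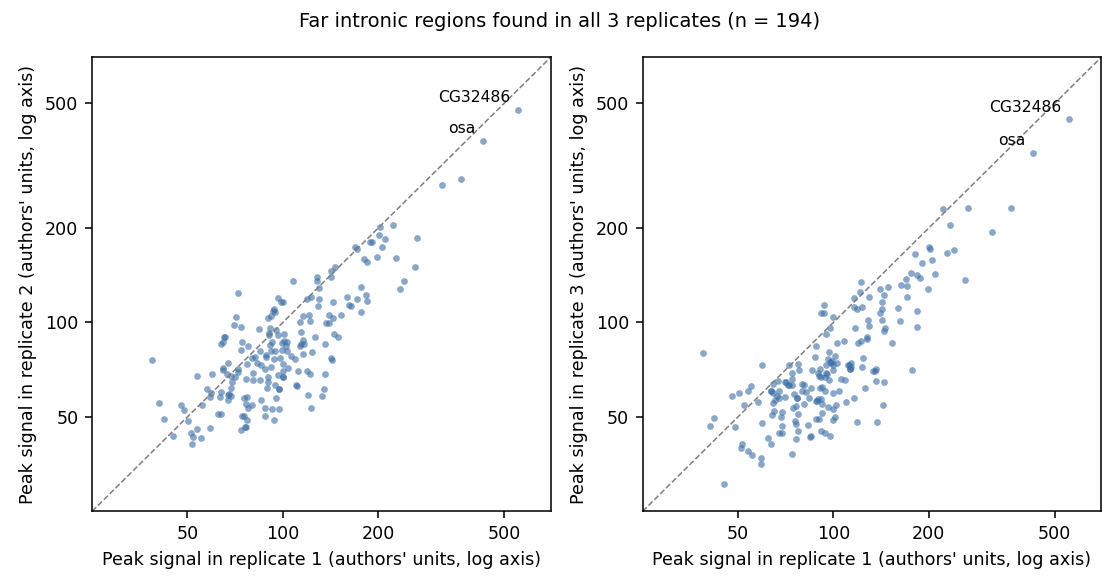
Peak signal of each of the 194 far intronic regions found in all 3 replicates, in the authors' units on log axes, with replicate 1 on the x axis and replicate 2 (left) or 3 (right) on the y axis; the dashed line marks equal values. The regions of CG32486 and osa lie at the upper end in every replicate, and most points lie below the line.

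The strongest far intronic region lay in the first intron of CG32486 (FBgn0266918), 5720 bp from the nearest start, with signals of 554, 476 and 444 in replicates 1, 2 and 3. The gene osa (FBgn0261885), which encodes a subunit of the Brahma chromatin remodelling complex, held the region in second place by mean rank, with signals of 428, 380 and 347. A further osa region, in the same intron, had signals of 317, 274 and 194, and the third one in the gene was found in replicates 1 and 2 with signals of 46.3 and 43.3. A region with signals of 364, 287 and 232 lay where the genes CG46321, CG12912 and Hr3 overlap, Hr3 encoding a nuclear receptor that is induced by the steroid hormone ecdysone. The region of CG5953 had signals of 266, 186 and 231. Apart from the third osa region, at a mean rank of 84.8%, these regions stood at mean ranks between 1.05% and 6.05%.

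Among the rest of the 20 strongest were regions in genes of chromatin and transcriptional control. One lay in simj, a subunit of the nucleosome remodelling and deacetylase complex, with signals of 222, 204 and 230. Another lay in both Su(Tpl), an elongation factor of RNA polymerase II, and Mi-2, the ATPase of that deacetylase complex, and its signals gave it a mean rank of 9.64%. Gug, the Atrophin corepressor, had signals of 202, 202 and 171. JIL-1, a histone H3 kinase, had signals of 241, 136 and 170. Others lay in genes of signalling: dpp, the BMP ligand of flies, had signals of 184, 156 and 142. The gene aos, which encodes a secreted inhibitor of the EGF receptor, had signals of 261, 150 and 137 in a region it shares with CG33158. The gene rdx, an adaptor for the turnover of the Hedgehog effector Ci, had signals of 228, 161 and 166. Btk, a Tec family tyrosine kinase, had signals of 210, 185 and 143, and mam, the coactivator of Notch, had signals of 169, 174 and 138. Dys, which encodes Dystrophin, had signals of 201, 190 and 174, and bun, a TSC22 domain protein, had signals of 234, 128 and 204. The other regions of the 20 lay in sick, atos, CG9328 and CG6966, with signals between 128 and 199 in the 3 replicates. Of the 20, 2 held CAACAA within 50 bp of the summit, those of CG5953 and bun.

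The threshold of 3000 bp fell within a continuous range of distances. Just inside it were regions of CG10011 at 3044 bp (signals 76, 46.3 and 42.6), tna at 3052 bp (84.8, 81.4 and 61.9) and puc at 3063 bp (64.6, 71.6 and 63.6). Just outside it were kis at 2975 bp (58.2, 50.6 and 65.6), siz at 2975 bp (70.5, 65.6 and 65) and upSET at 2955 bp (322, 255 and 239). The upSET region stood at a mean rank of 4.13%, and the other 5 at mean ranks between 43.9% and 70.3%.

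The far intronic regions lay a median of 6816 bp from the nearest start, with a range of 3044 to 59483 bp. The intron that held the summit had a median length of 17814 bp (349 to 108407 bp), and the nearest exon of that transcript was a median of 3764 bp away. Sequence that could have held such a summit, here called eligible, covered 30.7 Mb, which gives 10.3 regions per Mb. The density was highest close to the threshold, at 17.5 regions per Mb between 3000 and 5000 bp from a start (100 regions, exact Poisson 95% interval 14.2 to 21.3). It was 13 per Mb between 5000 and 10000 bp (111 regions, 10.7 to 15.6), 9.83 between 10000 and 20000 bp (70 regions, 7.66 to 12.4) and 3.64 beyond 20000 bp (34 regions, 2.52 to 5.09). The intervals of the first and the last of these ranges did not overlap. Nearer to a start, introns held 49.7 regions per Mb between 500 and 1000 bp, 32.1 between 1000 and 2000 bp, and 15.6 between 2000 and 3000 bp. Intergenic sequence of the autosomes held 13.2 regions per Mb between 3000 and 5000 bp and 1.74 beyond 20000 bp. The fall with distance was therefore seen both inside and outside genes.

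**Figure D2:**
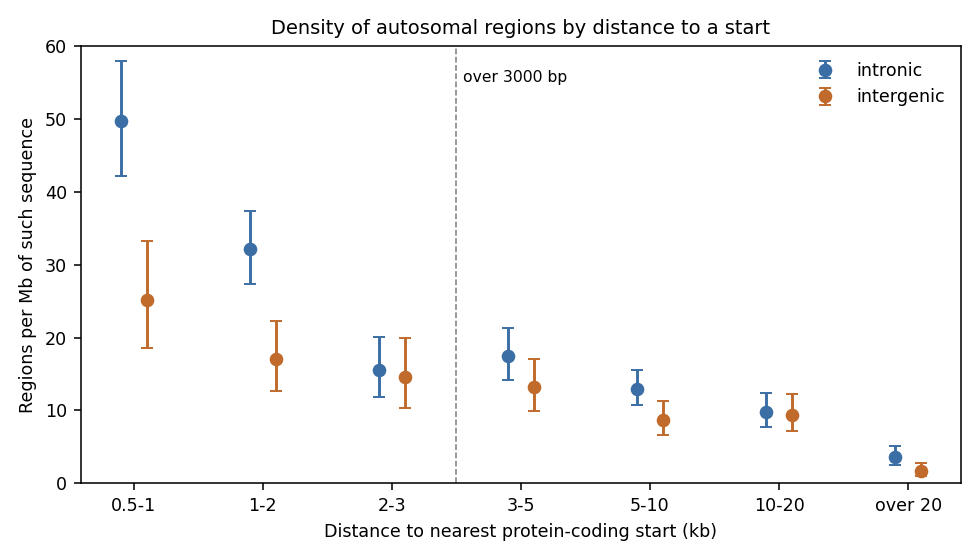
Autosomal regions found in 2 or more replicates per Mb of intronic (blue) or intergenic (orange) sequence, by distance to the nearest protein-coding start in kb, with exact Poisson 95% intervals; the dashed line marks the 3000 bp threshold of the far intronic regions. Intronic density falls from 49.7 per Mb at 500 to 1000 bp to 3.64 beyond 20000 bp.

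First introns of the canonical transcripts held 107 far intronic regions, or 15.7 per Mb, and later introns 180, or 8.21 per Mb. First introns made up 22.2% of the eligible sequence and held 34% of the regions (28.8 to 39.5). Sequence close to a start is more often in a first intron, and the part of distance in this difference was not tested. By chromosome arm the density was 12.7 per Mb on 2L, 11.3 on 2R, 9.66 on 3L and 9.06 on 3R. The 0.388 Mb of eligible sequence on chromosome 4 held no region. Taking 3 counts as the limit that a count of 0 allows, this is up to 7.73 per Mb, while the exact two-sided interval of the share reaches 1.16% of the 315, for 1.26% of the eligible sequence. Transposons of the annotation covered 8.56% of the eligible sequence and held 1 region (0.317%, 0.00804 to 1.76). Soft-masked repeats covered 24.4% of it and held 21.6% of the regions (17.2 to 26.5). How reads from repeats were aligned is not given in the sources used here, so few peaks in transposons and few uniquely placed reads there cannot be told apart. Within 500 bp of the start of an annotated noncoding gene lay 10 regions (3.17%, 1.53 to 5.76), 8 of them at genes annotated as noncoding RNA and 2 at small nucleolar RNA genes, while such sequence made up 1.18% of the eligible total. The share was 3.65% among near-start intronic regions, 11.3% among intergenic regions and 4.85% among all 2969 regions. The 10 far intronic ones included regions in puc, dlp, beat-Ib and Socs36E, which lay 107, 99, 403 and 383 bp from such a start.

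The word known for Aef1 was not more frequent at far intronic summits than beside them. CAACAA, searched on both strands within 50 bp of the summit, was found in 39 of the 315 regions (12.4%, 8.95 to 16.5). Among all 2969 regions it was found in 18.4%. Windows of the same size centred 500 bp to the left and right of the far intronic summits held it in 49 and 44 cases (mean 14.8%). The ratio of summit to flanks was 0.839, and the exact McNemar test (two-sided, the larger p of the 2 flanks) gave p = 0.635, or 1 after Benjamini-Hochberg adjustment over 32 motifs. In all 2969 regions the same ratio was 1.36, with an adjusted p of 4.02e-05 by the same exact test. The direction in the far intronic regions was not stable: the ratio was 1.08 in regions with a peak in all 3 replicates and 1.04 in windows of 25 bp either side, with p = 1 by the exact test in both.

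Each replicate taken alone gave a like picture. Among peaks whose own summit was far intronic (380, 347 and 298 in replicates 1, 2 and 3), 13.7%, 13.3% and 15.4% held CAACAA. The left flanks held it in 13.7%, 15.6% and 13.4%, and the right flanks in 14.5%, 12.7% and 13.4%. The ratio of summit to flanks was 0.972, 0.939 and 1.15 (mean 1.02 ± 0.114, SD, n = 3), so it lay on both sides of 1. Eligible intron sequence cut into windows of 101 bp held the word in 11.7%, close to the share at the summits. By distance, the word was found in 10% of the regions between 3000 and 5000 bp from a start (4.9 to 17.6), in 15.3% up to 10000 bp (9.18 to 23.4), in 15.7% up to 20000 bp (8.11 to 26.4), and in 1 of 34 beyond (2.94%, 0.0744 to 15.3).

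The tandem word CAACAACAA, each of whose matches also counts as CAACAA, was found at 9 far intronic summits (2.86%, 1.31 to 5.35) and at 6 windows on either flank. The ratio was 1.5, and the exact McNemar test gave p = 0.607 (adjusted 1). Among all 2969 regions the tandem was found in 5.59%, with a ratio of 2.27 and an adjusted p of 6.8e-08 by the same exact test. In eligible windows it was found in 0.985% (0.95 to 1.02), below the interval at far intronic summits. The far intronic flanks, at a mean of 1.9%, also stood above that share, and these differences were not tested. Per replicate the ratio was 1.71, 1.33 and 2.67 (mean 1.9 ± 0.687, SD, n = 3), above 1 in each. It was 0.75 (p = 1, exact) when 1 region per host gene was kept, so the 9 cases do not fix a direction against the flanks.

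**Figure D3:**
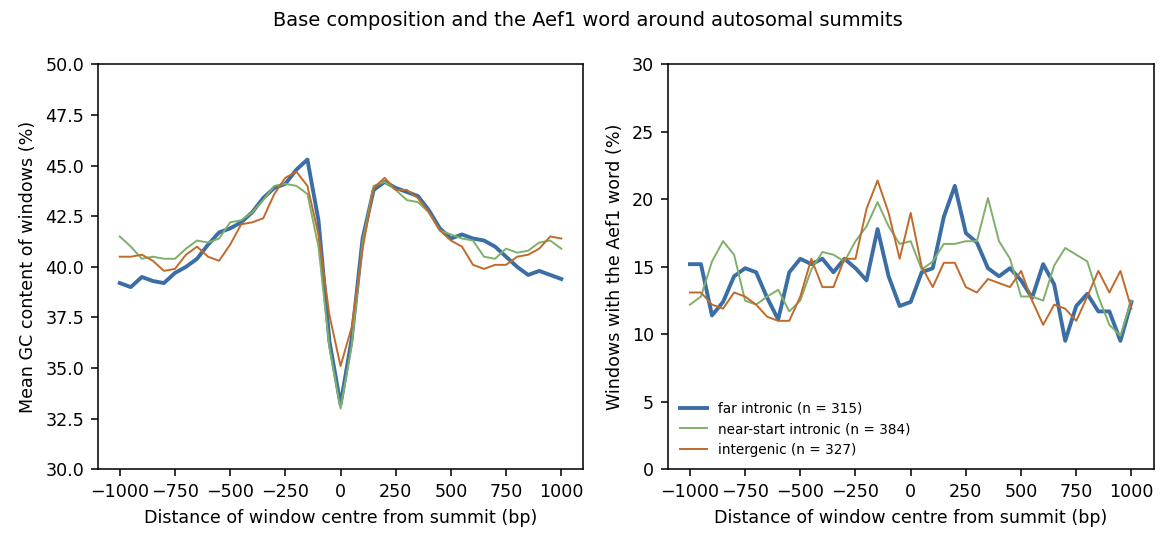
Mean GC content (left, in percent, axis from 30) and share of windows with the Aef1 word on either strand (right, in percent) in 101-bp windows every 50 bp from the summit, for 315 far intronic, 384 near-start intronic and 327 intergenic autosomal regions. GC content dips to 33.2% at the far intronic summits between shoulders of 45.3% and 43.8% at 150 bp. The word shows no peak at these summits, where its share is 12.4%. Its share is 17.8% at 150 bp to the left and 18.7% at 150 bp to the right. It is highest at 200 bp to the right, at 21%, and these differences were not tested.

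Read from the side of the DNA, most CAA tracts in eligible introns lay away from far intronic summits. The 315 summit windows of 101 bp, and the regions of median width 333 bp, cover only a small part of the 30.7 Mb of eligible sequence. The small shares below are therefore no sign that tracts are rare there. Per window, the tandem CAACAACAA was found at 2.86% of summits, in a mean of 1.9% of flanks and in 0.985% of eligible windows. These differences were not tested. Of 4716 tracts with 3 or more CAA copies in a row, 20 (0.424%, 0.259 to 0.654) lay within 50 bp of such a summit and 62 (1.31%, 1.01 to 1.68) inside such a region. Of the 237 tracts with 5 or more copies, 1 lay at a summit and 3 inside a region. The longest tract at a summit, of 6 copies, belonged to a region in mam with signals of 73.6 and 40.7 in replicates 1 and 3. It was followed by the tracts of 4 copies in ftz-f1 and kibra printed above, and by 10 regions whose longest tract was 3 copies. Of these 10, CG5953 and bun are printed above since they had the best mean ranks. The ftz-f1 region had signals of 63.6, 85.1 and 60.4, and the kibra region had 33.9 and 58.2 in replicates 2 and 3.

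In the direct comparison of region classes, far intronic regions held CAACAA less often than near-start intronic and intergenic regions, by an amount that did not pass the adjusted test. The classes were not matched by distance, with medians of 6816, 1140 and 3838 bp from a start for far intronic, near-start intronic and intergenic regions. Intronic regions over 500 and up to 3000 bp from a start held it in 65 of 384 cases (16.9%), a difference of -4.55 percentage points (Wald 95% interval -9.77 to 0.678; Fisher's exact test, two-sided, p = 0.109, adjusted over the 4 comparisons 0.145). Autosomal intergenic regions held it in 62 of 327 cases (19%), a difference of -6.58 points (-12.2 to -0.986; Fisher's exact p = 0.0231, adjusted 0.0923). The tandem was found in 4.43% and 6.12% of these classes, and differed from the far intronic share by -1.57 points (adjusted p = 0.319, Fisher's exact) and -3.26 points (adjusted p = 0.114, Fisher's exact). With 1 region per host gene, the strongest, the word was left in 19 of 220 far intronic regions (8.64%). Against near-start introns thinned in the same way (55 of 321, 17.1%), the difference was then -8.5 points (adjusted p = 0.00986, Fisher's exact). The intergenic class was not thinned and stayed at 62 of 327 (19%). Against it the difference was -10.3 points (adjusted p = 0.00339, Fisher's exact), and for the tandem -4.75 points (adjusted p = 0.0103, Fisher's exact). These passed the threshold, but the comparisons with intergenic regions set a thinned class against a whole one. With ranked-list peaks at an IDR of 0.05 or less, the differences were smaller, at -2.15 points against near-start introns (adjusted p = 0.563, Fisher's exact) and -0.778 points against intergenic regions (15% against 15.8%, adjusted p = 0.781, Fisher's exact). Of the 65 genes with 2 or more far intronic regions, 44 held the word in none of them, 17 in 1, and 4 in more than 1, namely simj (3 of 4), puc (2 of 3), mam (2 of 4) and ftz-f1 (2 of 6). The 158 regions in these 65 genes held the word in 26 cases (16.5%), and the other 157 in 13 (8.28%), a difference that was not tested.

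The far intronic summits were on average low in GC. The 101 bp at the summit had a mean GC content of 33.2% ± 9.74 (SD, n = 315). The left flanks had 41.9% ± 9.19, the right flanks 41.4% ± 9.21, and eligible windows 40.3% ± 9.1. The GC content of single summits ranged from 16.8% to 70.3%, and 250 of the 315 (79.4%) were below the mean of eligible windows. On either side GC rose to 45.3% and 43.8% at 150 bp and fell again to 39.2% and 39.4% at 1000 bp. The summits of intronic regions nearer to a start had 33% ± 9.56, and all 2969 regions 34.7% ± 10.4, so the dip was not restricted to far introns. Among the 194 far intronic regions found in all replicates, the 64 strongest had a mean of 30.8% ± 9.53, the 66 in the middle 32.2% ± 6.9 and the 64 weakest 35.2% ± 10.5. CAACAA was found in 14.1%, 12.1% and 14.1% of these groups, with no trend by rank.

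Of 32 motifs compared with flanks, 1 passed in the far intronic regions, against 14 (43.8%) in all 2969 regions. More can pass in the larger set at the same ratio, so these counts are not like for like. The motif that passed was TATAAA, the word of the TATA box, on either strand. It was found at 76 summits (24.1%) and in 43 and 42 flanking windows (mean 13.5%), a ratio of 1.79 (exact McNemar test, adjusted p = 0.0379). In all regions the ratio was 2.14. The call was lost without any one of the replicates, with adjusted p (exact McNemar) of 0.218, 0.157 and 0.113 without replicate 1, 2 and 3 and ratios between 1.7 and 1.96. With the same counts, TATAAA did not pass among all words of 6 bases (adjusted p = 0.145, exact McNemar), where it stood in place 17 by p. TATAAA consists of A and T only, and far intronic summits had less GC than their left and right flanks (33.2% against 41.9% and 41.4%). The part of base composition in the TATAAA call was not tested. GCCAT, the core word of the Polycomb group recruiter Pho, was found at 36 summits and in 71 and 64 flanking windows, a ratio of 0.533 that missed the threshold (adjusted p = 0.0537, exact McNemar). CACACACA was found at 3 summits and in 12 and 17 flanks (ratio 0.207, adjusted p = 0.375, exact McNemar). The DNA replication-related element TATCGATA, with a ratio of 5.26 in all regions, was found at 1 far intronic summit and 1 flanking window. TTCNNNGAA, the word of the JAK/STAT pathway's transcription factor, was found at 23 summits and in 3 and 13 flanking windows, which did not pass after adjustment (ratio 2.88, adjusted p = 1, exact McNemar). A match is the presence of these letters and no more.

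Of 2080 words of 6 bases, 8 were more frequent at far intronic summits and none less frequent, with 144 at an unadjusted p under 0.05, by the exact McNemar test. In all 2969 regions 1015 words (48.8%) differed, 317 up and 698 down, but more words can pass in that larger set at the same ratio. The 8 words consisted of A and T only. The first was AAAATA, at 130 summits against 69 and 62 flanking windows (ratio 1.98, adjusted p = 0.000714, exact McNemar). ATTTTA was found at 105 summits against 48 and 50, TATTAA at 70 against 25 and 26, and ATATTA at 75 against 18 and 30. TTAAAA was found at 96 summits against 45 and 48, AATATA at 75 against 30 and 35, ATTTAA at 98 against 55 and 50, and ATATAT at 49 against 19 and 18. Ordered by p, CAACAA stood in place 994 in the far intronic regions and in place 339 in all regions. Base composition moved with these words, since the summits were poorer in GC than the flanks, and its part in the result was not tested. The number of words called was 3, 4 and 14 without replicate 1, 2 and 3, 0 for regions more than 5000 bp from a start, and 30 in windows of 100 bp either side.

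The 315 regions lay in 228 host genes, 9.33% of the 2444 autosomal genes with eligible intron sequence (interval 8.2 to 10.6). A single region was found in 163 hosts, 2 in 45, 3 in 14 and 4 in 4 hosts. Regions in 2 or more overlapping genes numbered 9. The hosts had long introns, with a median of 22.2 kb of eligible sequence against 2.3 kb in the other eligible genes. The share of genes with a region grew with that length, from 1.49% of genes with up to 5000 bp to 13.9% up to 20000 bp, 26.2% up to 50000 bp and 32.8% above. A region within 500 bp of one of the gene's own starts was found for 67 hosts (29.4%, 23.6 to 35.8) and 435 of the 2216 other eligible genes (19.6%, 18 to 21.3). By eligible length, these shares were 19% of 21 hosts (5.45 to 41.9) and 21.2% of 1385 others (19.1 to 23.5) up to 5000 bp. Up to 20000 bp they were 29.3% of 82 hosts (19.7 to 40.4) and 18.9% of 508 others (15.6 to 22.6). Up to 50000 bp they were 32.2% of 87 hosts (22.6 to 43.1) and 13.9% of 245 others (9.81 to 18.8), and above that 28.9% of 38 hosts (15.4 to 45.9) and 14.1% of 78 others (7.26 to 23.8). The intervals of hosts and others overlapped in 3 of these 4 length ranges, and the difference was not tested.

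The genes with 4 or more regions were sbb, ftz-f1, simj, mam, Snoo and Tet. Of the 14 genes with 3 regions, osa, sick, beat-Ib and Pdp1 are described here, as those whose strongest region ranked best. The gene sbb, which encodes a transcriptional corepressor, held 8 regions in 42.1 kb of eligible intron, 7 of them found in all replicates. The strongest of these had signals of 171, 172 and 121, and the weakest, found in replicates 1 and 2, had 54.9 and 62. CAACAA was found in 1 of the 8. The nuclear receptor gene ftz-f1 held 6 regions in 36.5 kb, 4 of them in all replicates, with signals from 116, 79.5 and 120 in the first to 47.7 and 42.2 in the last, which was found in replicates 1 and 2. The chromatin remodelling genes simj and osa held 4 and 3 regions, each in 18.3 kb.

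Snoo, the fly homologue of the Ski and Sno corepressors of TGF-β signalling, held 4 regions in 77.3 kb, all found in every replicate, between 12245 and 41853 bp from a start. Tet, a DNA and RNA hydroxylase, held 4 in 71.8 kb, of which 2 were found in all replicates. The Notch coactivator gene mam held 4 in 44.2 kb, with signals of 169, 174 and 138 in the strongest and 58.9, 46 and 37.1 in the weakest found in all replicates. The gene beat-Ib, of the immunoglobulin superfamily, held 3 in 30.3 kb. Pdp1, a transcription factor of the circadian clock, held 3 in 30.2 kb. The gene sick held 3 in 98.1 kb. The spread within a gene was therefore wide: osa held both the second strongest region of all and one at a mean rank of 84.8%.

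Hosts were also sorted into lists of genes by role, and 80 of the 228 fell in at least 1 list. Density is given per Mb of the list's own eligible intron, beside 10.3 for all genes (exact Poisson interval 9.15 to 11.5). Counts of host genes stand beside 9.33% of all eligible genes, a share that grew with eligible length. Density was also taken up to 10000 bp from a start, a limit chosen after the fall with distance was seen, where all genes together held 14.8 per Mb (12.9 to 16.9). There the order of the lists was kept, except that homeobox genes fell below axon guidance genes and the cytoskeleton list fell below all genes.

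Chromatin regulators had the highest density, 86.5 per Mb (41.5 to 159), from 10 regions in 0.116 Mb, and 5 of their 21 eligible genes were hosts. These were osa and Mi-2, described above, with 3 and 2 regions, gpp, the histone H3 methyltransferase Dot1 of flies, with 3, and Psc and trx with 1 each. Both Mi-2 regions also lie in Su(Tpl), and simj and JIL-1, named above, were not counted in this list. Psc, a subunit of Polycomb repressive complex 1, had signals of 160, 121 and 111. The strongest gpp region had signals of 108, 136 and 87.4 and its weakest 45, 43.5 and 30.6. The gene trx, a histone H3 methyltransferase that counteracts Polycomb repression, had signals of 67.5, 59.3 and 44.4. With 10 regions in 5 genes, and 3 of them in osa, the density rests on few genes, and up to 10000 bp it was 72.3 per Mb (26.5 to 157).

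Genes of developmental signalling followed with 40 regions in 1.05 Mb, 38.1 per Mb (27.2 to 51.9), and 23 of 65 eligible genes were hosts (35.4%). They spanned several pathways. In BMP signalling, the ligand dpp, the receptor tkv, the inhibitory Smad Dad and the zinc finger effector shn held 1, 1, 1 and 2 regions. The dpp region was among the 20 strongest, while that of tkv had signals of 53.6, 45.6 and 39. In the Jun kinase pathway, msn, a kinase at its head, and puc, the phosphatase that shuts it down, held 3 each. The 3 puc regions lay in 10 kb of eligible intron, and the strongest had signals of 142, 77.3 and 102. In the EGF receptor and ERK pathway, aos, rl (ERK itself), the Ets factor pnt and the repressor cic held 1, 1, 3 and 2. In the Hippo pathway the kinase wts and its upstream regulators kibra and ex held 2, 2 and 1. The best wts region had signals of 94.8, 81 and 73.1. The glypicans dally and dlp and the Wnt coreceptor arr held 2 each. The list also counted mam with 4 and the ecdysone receptor EcR with 2. The remaining hosts, Pvf3, Socs36E, jeb, ths and Src64B, held 1 each.

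Genes of the ecdysone response, fat body and hemocytes had 20 regions in 0.532 Mb, 37.6 per Mb (23 to 58.1), in 10 of 34 eligible genes. The hosts were the nuclear receptor genes EcR, Hr3, ftz-f1 and Eip75B, the other ecdysone-induced transcription factor genes Eip74EF and Eip93F, the ABC transporter E23, the insulin-binding ImpL2, the GATA cofactor ush and the insulin effector foxo. Of these, 7 also belong to the list of other transcription factors. The ftz-f1 gene gave 6 of the 20 regions. EcR had signals of 126, 89.8 and 62 in one region and 72.1, 69.3 and 63.4 in the other. The strongest E23 region had signals of 143, 75.7 and 54.5.

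The list of other transcription factors, with zinc finger, BTB, nuclear receptor and further families, had 25 regions in 17 of 57 eligible genes, 18.8 per Mb (12.1 to 27.7). Beside ftz-f1, EcR and Hr3 it counted bun, sr, E2f1 and luna, and the BTB genes ab, ttk, chinmo and bab2 with 1 region each. Genes of the basic helix-loop-helix and Sox families had 5 regions in 4 of 20 genes, sima, tai, twi and crp, or 16.9 per Mb (5.5 to 39.5). Homeobox genes had 8 regions in 4 of 49 genes, 10.1 per Mb (4.35 to 19.9), near the value for all genes. These were hth with 3, Antp and NK7.1 with 2 and Ubx with 1, and up to 10000 bp the density was 4.72 per Mb (0.572 to 17.1). The best hth region had signals of 106, 78.2 and 66.

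Genes of neurons had fewer regions per Mb of intron than all genes together. Axon guidance and neuronal adhesion genes had the most eligible sequence of the lists, 3.35 Mb, and 18 regions, 5.37 per Mb (3.18 to 8.49), in 12 of 97 genes. The best placed were beat-Ib, side, ed and Sema1a, with mean ranks between 13.6% and 26.2%. Ion channel and synaptic genes had 2 regions in 1.17 Mb, 1.71 per Mb (0.208 to 6.19), in Ih and mAChR-B. RNA-binding proteins had 3 in 1.38 Mb, 2.18 per Mb (0.45 to 6.38), in how, Rbfox1 and msi. The density intervals of these 3 lists lay below that of all genes. By number of genes, hosts made up 12.4% (6.56 to 20.6), 3.12% (0.381 to 10.8) and 9.09% (1.92 to 24.3) of them. The share over all eligible genes was 9.33%, so the axon guidance list was not below it by this count. Up to 10000 bp from a start the density intervals were wider and reached 14.3, 12.7 and 15.7 per Mb. There the first and the third overlapped the interval of all genes. Cytoskeleton, junction and muscle genes had 9 regions in 8 of 67 genes, 11.6 per Mb (5.29 to 22). Ribosomal protein genes had no eligible sequence. These densities are a description, and no list was tested against the others.

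**Figure D4:**
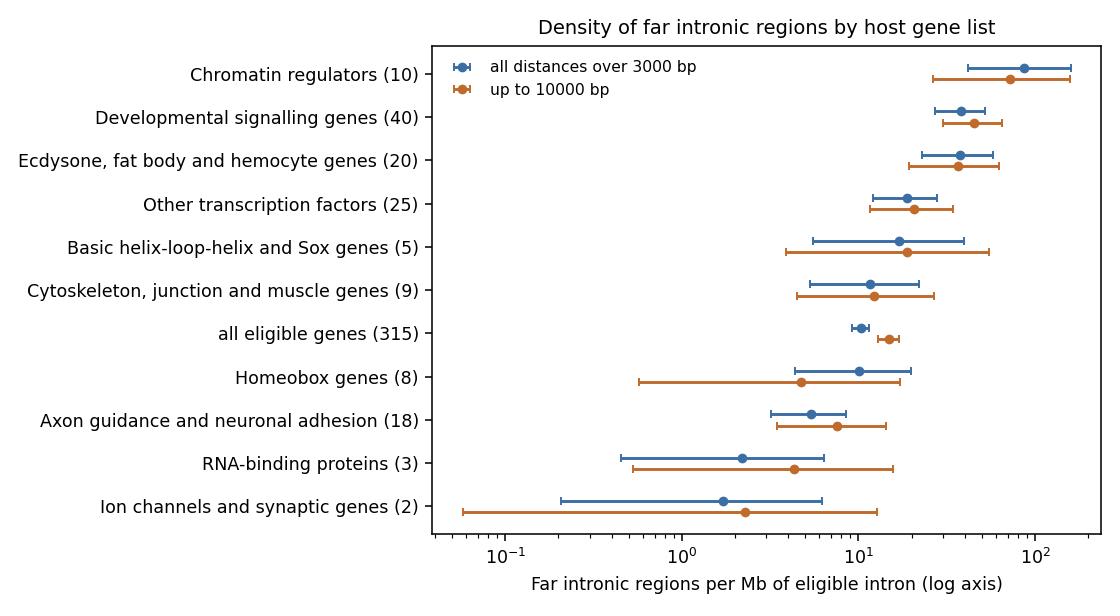
Far intronic regions per Mb of eligible intron (log axis) in each gene list, with the number of regions in brackets and exact Poisson 95% intervals, for all eligible sequence (blue) and for sequence up to 10000 bp from a start (orange). Chromatin regulators stand highest at 86.5 per Mb and ion channel and synaptic genes lowest at 1.71, with 10.3 for all eligible genes.

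Far intronic summits made up a steady share of the autosomal peaks of each replicate, 13.6%, 14% and 12.9% in replicates 1, 2 and 3 (mean 13.5 ± 0.553, SD, n = 3). The authors also made 4 lists for the series as a whole, which overlapped 99.4%, 96.5%, 94.9% and 94.3% of the 315 regions, against 98.7%, 96.4%, 95.1% and 95.8% of all 2969. These lists derive from alignments of several replicates of the same series, so a high overlap is no independent support.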

How the data were processed

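Per the labels, chromatin was taken from whole embryos in 3 biological replicates, and peaks are on the dm6 assembly. The authors deposited thresholded and ranked peak lists per replicate. The signal values were made by the authors' peak caller before the lists were deposited, in units the sources do not state, so they served only to rank and describe peaks. The score in the deposited lists equals 125 times −log2 of the IDR, capped at 1000, and is at least 830 in the thresholded lists. The ranked lists also give −log10 of the IDR, as deposited by the authors. For aligner and peak caller, names and versions were not given in the sources used here.

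Peaks were merged into regions, and each region's summit is the median over replicates of the strongest peak's summit. Gene models were Ensembl's (release 115, BDGP6.54), with 13945 protein-coding genes and 19252 distinct starts. Sequence came from RefSeq's Release 6 assembly. Windows of 101 bp were compared with windows centred 500 bp away by exact McNemar tests, and classes of regions by Fisher's exact tests, with Benjamini-Hochberg adjustment at 0.05. The flank test for words of 6 bases was tried on simulated windows, where summits and flanks had the same base composition. Tools were Python 3.11.15, numpy 2.4.6, SciPy 1.17.1 and matplotlib 3.10.9.

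The regions, motifs and gene lists were chosen with earlier results of these data known. Named genes are the hosts of the 20 strongest regions found in 3 replicates, the 10 hosts with the most regions, up to 4 best-ranked hosts per list, the 5 longest tracts (ties in both counts going to the better mean rank) and the 3 regions on each side of the distance threshold. Other hosts and regions were named after their values were seen. Alternatives tried were leaving out each replicate, requiring 3 replicates, other distances, windows and flanks, other exon sets, close summits, 1 region per host gene, and ranked-list peaks at an IDR of 0.05.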

Additional observations from a re-analysis of the deposited data

How the results depend on the processing

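Without replicate 1, 2 or 3, with regions then required in both others, the number of far intronic regions was 220 to 258, the ratio of summit to flanks was 0.817 to 0.983 for CAACAA and 1 to 2.29 for the tandem, 0 motifs passed in each case, and 3 to 14 words of 6 bases did. The CAACAA difference was then -4.68 to -3.02 points against near-start introns and -7.03 to -2.4 against intergenic regions, and that of the tandem was -2.78 to -1.31 and -2.3 to -0.281, none past the threshold. Requiring all 3 replicates left 194 regions, a CAACAA ratio of 1.08, 0 motifs and 4 words. A distance over 2000 bp gave 2 motifs and 16 words. Over 5000 bp there were 0 of both, and the tandem difference against near-start introns turned to 0.674 points. Exons of any annotated gene gave 2 motifs. Windows of 25 bp either side gave a CAACAA ratio of 1.04 and 0 words, and windows of 100 bp gave 2 motifs and 30 words. With 1 region per host gene the tandem ratio was 0.75, with 0 motifs and 5 words. The differences were then -8.5 and -10.3 points for CAACAA and -4.75 for the tandem against intergenic regions, a class that was not thinned. Flanks at 1000 bp gave 1 word. Ranked-list peaks at an IDR of 0.05 gave a CAACAA ratio of 1.04, 2 motifs and 23 words, and CAACAA differences of -2.15 and -0.778 points against near-start introns and intergenic regions. The cause of these changes was not tested. No paired analysis was possible because the samples form 1 group.

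Depth is unknown, no control sample was analysed here, and replicate summits lay a median of 29 bp apart, which limits how closely a word can be placed.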
